A study of Homo sapiens with 6 samples.

Results

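Interleukins, chemokines and their receptors are the signalling molecules with which lymphocytes recruit, activate and restrain other cells. The genes were taken by platform symbol: those starting with IL and a digit, CCL, CXCL, XCL, CCR and a digit, CXCR or ACKR, together with IFNG, TNF, LTA, LTB and CSF2, the last of which was not analysed here. The array held 106 such genes on 327 probes, of 4604 genes with a symbol. Of these, 98 had values on at least 2 of the 3 arrays of each siRNA and were tested, 56 ligands, 39 receptors and 3 counted as neither. These were the antagonists IL1RN and IL36RN, and ACKR5, an atypical chemokine receptor by its symbol that was missing from the table of roles and so stands outside the receptor counts below. The 8 left out were CCL26, CXCL13, CXCR1, IL12RB2, IL17C, IL18R1, IL22RA1 and IL36G, and 8 of the 98 lacked a value on at least 1 array.

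Jurkat is a human leukaemia line of T cell origin. The first group was Jurkat cells transfected with siRNA against RPS3, a ribosomal protein that also binds p65 in the nucleus. The second was Jurkat cells transfected with siRNA against p65, which is the product of RELA and an activating NF-kB subunit. Each had 3 arrays, taken after 1, 3 and 6 h of stimulation with 1 ug of anti-CD3/CD28, so a single time (1 array per siRNA) had no replicate check. On every array the Cy3 channel held RNA of Jurkat cells given nonspecific siRNA and stimulated for the same time. All cells were therefore transfected and stimulated, and no array shows what stimulation itself did. Values are log2 ratios of siRNA over control siRNA, the likely direction, and an SD is over the 3 arrays of a siRNA (n = 3 unless stated). Ratios carry no level, so nothing below says how much of a transcript the cells held. The RNA was from bulk cultures, in which fewer expressing cells and less RNA per cell cannot be told apart. RPS3 itself had ratios of -2.50, -2.53 and -1.44 at 1, 3 and 6 h of RPS3 siRNA, against 0.11, 0.01 and 1.11 on the p65 siRNA arrays. RELA, the transcript targeted by p65 siRNA, averaged -0.54 ± 0.15 on the RPS3 siRNA arrays and -0.49 ± 0.09 on the p65 siRNA arrays.

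Signals from the T cell receptor and CD28 reach cytokine genes through NFAT, AP-1 and NF-kB, and the promoters of many chemokines and of IL6 carry NF-kB sites. Interleukins act through receptors built of a specific chain and a shared one, such as the common gamma chain IL2RG or the gp130 chain IL6ST, which signal through JAK kinases and STAT factors. Chemokines act through G protein-coupled receptors that steer migration, while the atypical receptors ACKR1 to ACKR3 bind chemokines and clear or present them without that signal.

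RefSeq promoter windows, 250 bases before to 50 after the start of a gene in GRCh38.p14, were found for 84 of the 106 genes. A full kB site, with the letters in capitals below and any base at position 5, was searched on both strands. It occurred in 8 of 47 ligand promoters (17.02%) and in 1 of 34 receptor promoters (2.941%), against 0.5786% of all 27305 promoters. The 9 windows are shown because p65 binds sites of this form. Each is 30 bases in the direction of its gene with the match in capitals, and in LTB the match is on the opposite strand.
CXCL1 (chr4:73869304-73869333, plus strand): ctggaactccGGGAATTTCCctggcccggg
CXCL2 (chr4:74099254-74099283, minus strand): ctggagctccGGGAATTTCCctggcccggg
CXCL3 (chr4:74038749-74038778, minus strand): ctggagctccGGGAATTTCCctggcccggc
CXCL5 (chr4:73998749-73998778, minus strand): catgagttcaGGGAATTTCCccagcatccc
CXCL6 (chr4:73836578-73836607, plus strand): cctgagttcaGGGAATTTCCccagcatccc
IL27RA (chr19:14031684-14031713, plus strand): gccccagccgGGGACTTTCCgtcgcgggga
IL32 (chr16:3065294-3065323, plus strand): cctgtactcaGGGAGTTTCCccagccagct
IL6 (chr7:22727117-22727146, plus strand): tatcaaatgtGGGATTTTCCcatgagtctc
LTB (chr6:31582492-31582521, minus strand): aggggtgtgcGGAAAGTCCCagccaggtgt
The sites of CXCL1, CXCL2 and CXCL3 sit in nearly the same letters, as do those of CXCL5 and CXCL6, so these are not separate examples. Under RPS3 siRNA the mean ratio of 6 of the 9 genes lay above 0 and of 3 below, with a median of 0.06 and a range from -0.17 to 0.30. Under p65 siRNA 8 lay above 0 and 1 below, with a median of 0.10 and a range from -0.23 to 0.33. Among these 8 were LTB at 0.00 and IL32 at 0.02. Of all features 54.1% had a mean ratio above 0 under RPS3 siRNA and 55.8% under p65 siRNA. Of all tested ligands the shares were 69.6% and 67.9%. The 1 gene below 0 under p65 siRNA was IL27RA, a receptor chain for IL-27. Its ratios were -0.06, -0.05 and -0.20 at 1, 3 and 6 h on the RPS3 siRNA arrays and -0.04, -0.38 and -0.27 on the p65 siRNA arrays. A match is a description of letters and does not show a bound site.

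The other motifs searched on both strands were the looser kB half-site pair (3 G, any 5 bases and 2 C), which covers the full site and can overlap it, the NFAT core TGGAAA, the AP-1 element TGANTCA and the TATA box TATAAA. The half-site pair stood in 53.19% of ligand, 44.12% of receptor and 57.99% of all promoters. TATAAA stood in 36.17% of ligand, 11.76% of receptor and 11.95% of all promoters. TGGAAA stood in 36.17% of ligand, 17.65% of receptor and 21.06% of all promoters, and TGANTCA in 17.02% of ligand, 14.71% of receptor and 7.764% of all promoters. Promoters of 4 genes are printed in the direction of the gene with all matches in capitals, taken by size of mean ratio among members at an unadjusted p under 0.05 in any comparison and held in the RefSeq table.
CCR4 (chr3:32951394-32951693, plus strand): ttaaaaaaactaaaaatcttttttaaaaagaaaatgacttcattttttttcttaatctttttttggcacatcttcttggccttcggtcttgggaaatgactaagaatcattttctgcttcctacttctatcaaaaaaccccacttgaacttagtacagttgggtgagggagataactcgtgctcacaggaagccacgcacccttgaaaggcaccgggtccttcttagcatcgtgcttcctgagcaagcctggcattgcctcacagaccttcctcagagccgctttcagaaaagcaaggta
CXCL11 (chr4:76036021-76036320, minus strand): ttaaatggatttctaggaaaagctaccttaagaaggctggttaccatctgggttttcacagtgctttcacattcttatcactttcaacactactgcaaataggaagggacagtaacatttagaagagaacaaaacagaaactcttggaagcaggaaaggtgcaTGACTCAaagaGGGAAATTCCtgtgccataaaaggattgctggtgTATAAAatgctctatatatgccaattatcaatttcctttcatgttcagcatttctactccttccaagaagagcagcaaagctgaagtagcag
CXCR3 (chrX:71618462-71618761, minus strand): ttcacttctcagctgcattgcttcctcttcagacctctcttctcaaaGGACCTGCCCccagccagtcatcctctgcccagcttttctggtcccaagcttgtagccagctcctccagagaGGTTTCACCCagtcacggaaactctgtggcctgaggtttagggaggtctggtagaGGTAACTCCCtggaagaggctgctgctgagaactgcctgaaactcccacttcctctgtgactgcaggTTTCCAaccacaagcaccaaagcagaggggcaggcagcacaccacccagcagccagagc
IL2RG (chrX:71111528-71111827, minus strand): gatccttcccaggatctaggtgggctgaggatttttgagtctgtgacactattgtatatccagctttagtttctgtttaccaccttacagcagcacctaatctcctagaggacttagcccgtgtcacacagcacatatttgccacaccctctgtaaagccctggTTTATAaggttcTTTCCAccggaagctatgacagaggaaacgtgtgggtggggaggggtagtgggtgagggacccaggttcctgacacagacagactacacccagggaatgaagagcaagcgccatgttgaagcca
CXCL11 held TGANTCA at position -87 from the start of the gene, a half-site pair at -76 and TATAAA at -42. CXCR3 held the half-site pair at 3 places and TGGAAA once, all on the opposite strand. IL2RG held TATAAA at -86 and TGGAAA at -74, both on the opposite strand, and CCR4 held none of the 5 motifs.

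None of the 98 genes passed the test in any comparison. With limma and Benjamini-Hochberg adjustment over all 8797 features tested, 0 genes of the group and 0% of all features had an adjusted p under 0.05 for RPS3 siRNA, for p65 siRNA, for their difference and for the change per hour of stimulation. The lowest adjusted p among the 98 genes was 0.492 for RPS3 siRNA, 0.919 for p65 siRNA, 1.00 for the difference and 0.189 for the slope. The same test did not call the siRNA targets themselves. RPS3 under RPS3 siRNA, at a mean of -2.16, had an adjusted p of 0.202 (limma), and RELA under p65 siRNA 0.919. Genes that did not pass are therefore not shown to be unchanged. At an unadjusted p under 0.05, 4 genes were reached under RPS3 siRNA against 7.71% of all features, 1 with a higher ratio against 3.73% and 3 with a lower one against 3.98%. Under p65 siRNA 1 was reached against 5.06%, with a higher ratio against 2.65%. For the difference 0 were reached against 2.35%, of which 1.1% were higher and 1.25% lower. For the slope 12 were reached against 19.1%. In each comparison the share of the group was below that of the whole array. The values below are therefore descriptions of these arrays, and a gene is named by fixed rules of size and sign.

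The ligands as a group stood above the receptors on some arrays and below on others. On the RPS3 siRNA arrays the median ligand ratio was 0.18 at 1 h, 0.03 at 3 h and -0.10 at 6 h, and the share of ligands above 0 was 75%, 62.5% and 33.3%. On the p65 siRNA arrays it was -0.09, 0.29 and 0.06, with 26.8%, 69.1% and 66.7% of ligands above 0. Of all features 50.0% to 51.4% lay above 0 on each array. The arrays with the highest ligand medians were RPS3 siRNA at 1 h and p65 siRNA at 3 h. The array titles carry an identifier number, called experiment number here, by which the arrays form 2 runs of consecutive numbers. The labels do not say whether a run marks a batch. The first run held RPS3 siRNA at 3 h and p65 siRNA at 1 h, and the second the other 4. Both arrays with the highest ligand medians lay in the second run. Across all probes with values on both arrays, which are not independent, these 2 arrays correlated at 0.47, both arrays of the first run at 0.46 and both 6 h arrays at 0.69. A difference in timing between the siRNAs and a property of the run cannot be told apart here. Receptor medians stayed nearer to 0, at 0.04, -0.02 and -0.02 on the RPS3 siRNA arrays and at -0.04, 0.06 and 0.05 on the p65 siRNA arrays. The ligand median minus the receptor median was 0.14, 0.06 and -0.09 under RPS3 siRNA, and -0.05, 0.24 and 0.00 under p65 siRNA. The sign of that gap was not the same on the 3 arrays of either siRNA. Over the arrays of a siRNA, the median of the mean ratios was 0.09 for ligands and 0.02 for receptors under RPS3 siRNA, and 0.08 and 0.03 under p65 siRNA. The median over all features was 0.02 for both siRNAs. The ligand median under RPS3 siRNA was -0.03 without the 1 h array and 0.12 without the 6 h array, and that under p65 siRNA -0.04 without the 3 h array and 0.15 without the 1 h array.

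**Figure D1:**
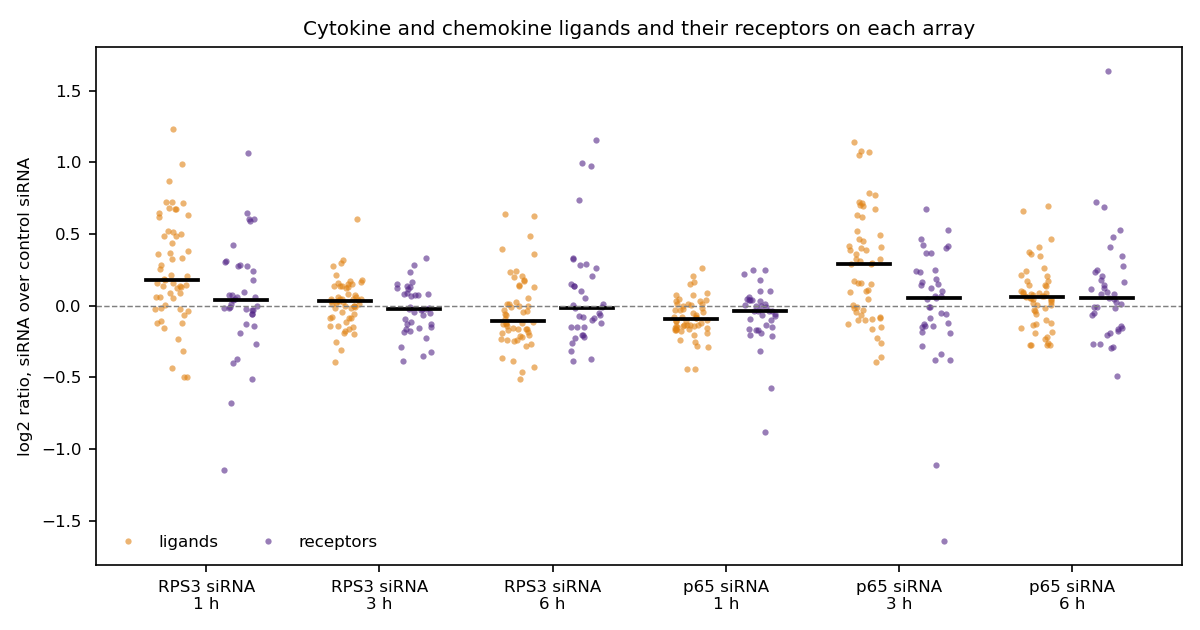
Log2 ratio of siRNA over control siRNA (vertical axis) of each ligand (orange) and receptor (purple) on each of the 6 arrays, with 1 point per gene and a black bar at the median. The ligand bar is at 0.18 on the RPS3 siRNA array at 1 h and at 0.29 on the p65 siRNA array at 3 h, while the receptor bars lie between -0.04 and 0.06.

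Ligand probes had more blanks than the rest of the array. A value on all 6 arrays was present for 52.5% of ligand probes and 57.7% of receptor probes, against 70.3% of all probes. When only such complete probes were averaged, the ligand median was 0.14 on the RPS3 siRNA array at 1 h and 0.16 on the p65 siRNA array at 3 h. On that p65 siRNA array a range of consecutive probe numbers, chosen after the values were seen and holding 13.3% of all probes, had a median of 0.24 over all genes, against -0.03 for the other probes. Of ligand probes 14.0% lay in it. With each array centred within blocks of 500 probe numbers, a choice made after the values were seen, the ligand median there was 0.17. The part of blanks and of probe position in the ligand values was not tested.

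Among the ligands, medians differed more between arrays for chemokines than for interleukins. The median of the chemokines was 0.21, 0.05 and -0.12 at 1, 3 and 6 h of RPS3 siRNA, and -0.09, 0.34 and 0.05 of p65 siRNA. On the RPS3 siRNA array at 1 h 81.8% of the 33 chemokines lay above 0, against 50.9% of all features. At 6 h it was 25.0% of 32, against 50.1%. The 19 interleukins had medians of 0.14, 0.00 and 0.02 on the RPS3 siRNA arrays, and of -0.11, 0.16 and 0.10 on the p65 siRNA arrays. The 14 chemokine receptors had a median of the mean ratios of 0.05 under RPS3 siRNA and 0.10 under p65 siRNA, and the 25 interleukin receptors of -0.01 under RPS3 siRNA and 0.01 under p65 siRNA.

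CCL16, a chemokine made mainly in liver, had the lowest mean ratio of all members under RPS3 siRNA. With 1 probe, it had ratios of -0.50, -0.31 and -0.38 on the RPS3 siRNA arrays, against -0.25, 0.29 and -0.26 on the p65 siRNA arrays. All 3 RPS3 siRNA values lay below the p65 siRNA values, with means of -0.40 ± 0.10 and -0.07 ± 0.32. The unadjusted p for RPS3 siRNA was 0.0228 and the adjusted p 0.618 (limma). The difference of -0.32 was -0.14 without the p65 siRNA array at 3 h.

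CXCL11, which attracts activated T cells through CXCR3 and whose promoter is printed above, had the highest mean of the one-signed members under p65 siRNA. It read 0.18, 0.30 and 0.01 on the RPS3 siRNA arrays, against 0.20, 1.08 and 0.22 on the p65 siRNA arrays. Every array lay above 0, and the 3 h array of p65 siRNA stood apart. The means were 0.17 ± 0.14 under RPS3 siRNA and 0.50 ± 0.50 under p65 siRNA, and without that array the p65 siRNA mean was 0.21. The unadjusted p for p65 siRNA was 0.0276 and the adjusted p 0.919 (limma).

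CCL25 and IL6 were the other members above 0 on every array of both siRNAs, 3 of 98 against 5.13% of all features. CCL25, the thymic and gut ligand of CCR9, had 2 values per siRNA, 0.73 and 0.14 at 1 and 3 h of RPS3 siRNA and 0.03 and 0.69 of p65 siRNA. Its 2 probes differed, at 1.91 and -0.46 on the RPS3 siRNA array at 1 h. IL6, an inflammatory cytokine with the NF-kB site shown above, read 0.71, 0.00 and 0.17 on the RPS3 siRNA arrays and 0.01, 0.72 and 0.26 on the p65 siRNA arrays. The high values were on the same 2 arrays of the second run as the highest ligand medians. Its means were 0.29 ± 0.37 and 0.33 ± 0.36, and were 0.08 without the RPS3 siRNA array at 1 h and 0.14 without the p65 siRNA array at 3 h.

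CCL4, a chemokine that T cells release on activation, lay above 0 on every RPS3 siRNA array. It read 0.37, 0.22 and 0.20 on the RPS3 siRNA arrays, against -0.15, 0.36 and 0.01 on the p65 siRNA arrays. The means over its 8 probes were 0.26 ± 0.09 and 0.07 ± 0.26, and the adjusted p for RPS3 siRNA was 0.697 (limma). Its probes differed: of 7 complete ones 5 averaged above 0 under RPS3 siRNA and 2 below, from -0.24 to 0.62. CXCL3, a neutrophil attractant read by 1 probe, averaged 0.30 ± 0.27 under RPS3 siRNA, and 0.15 without the 3 h array. CXCL14 averaged 0.30 ± 0.36 under RPS3 siRNA and 0.28 ± 0.43 under p65 siRNA, the second being 0.03 without the 3 h array. For each of these genes the values of both siRNAs overlapped.

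CXCL5, another neutrophil attractant with the shared NF-kB window, was below 0 on every RPS3 siRNA array at -0.16, -0.15 and -0.22. It read 0.15, -0.01 and 0.17 on the p65 siRNA arrays, all above the RPS3 siRNA values. The means were -0.17 ± 0.04 and 0.10 ± 0.10. Of its 2 probes 1 averaged -0.31 under RPS3 siRNA and 0.20 under p65 siRNA. The other averaged -0.04 and 0.01, and its values under both siRNAs overlapped. CCL22, which draws cells through CCR4, lay the other way. It read 0.13, 0.03 and -0.17 on the RPS3 siRNA arrays and -0.24 and -0.36 at 1 and 3 h of p65 siRNA. All RPS3 siRNA values lay above the p65 siRNA values, at means of -0.01 ± 0.15 and -0.30 ± 0.08 (n = 2), and neither of its 2 probes had a value on all 6 arrays. CXCL8, the neutrophil attractant interleukin-8, read -0.03, 0.32 and -0.14 on the RPS3 siRNA arrays, against -0.11, -0.08 and -0.28 on the p65 siRNA arrays. Its p65 siRNA mean of -0.15 ± 0.11 was 0.01 when probes of 3 number ranges, described with the single probes below, were left out.

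Cytokines by which effector T cells are usually recognised stayed close to 0 or were uneven. IL2, the T cell growth factor, read 0.14, -0.01 and 0.01 on the RPS3 siRNA arrays and -0.08, -0.02 and 0.02 on the p65 siRNA arrays. Both of its probes had values on all arrays, and the means were 0.04 ± 0.08 and -0.02 ± 0.05. TNF, the inflammatory cytokine, read -0.12, -0.11 and -0.09 on the RPS3 siRNA arrays, and -0.14, -0.10 and -0.03 on the p65 siRNA arrays. It was 1 of 3 members below 0 on every array of both siRNAs, with IL27RA and IL6ST, against 3.43% of all features. On the RPS3 siRNA array at 1 h 1 of its 5 probes read 1.27 and the other 4 between -0.72 and -0.31. With complete probes only the RPS3 siRNA mean of TNF was -0.26, against -0.11 with all probes.

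IFNG, the macrophage-activating interferon, read 0.36, 0.03 and -0.51 on the RPS3 siRNA arrays and -0.05, 0.63 and -0.27 on the p65 siRNA arrays. The spread within each siRNA, 0.44 and 0.47 as SD, exceeded the means of -0.04 and 0.10 in size. LTA, lymphotoxin alpha, read 0.99, 0.06 and -0.12 on the RPS3 siRNA arrays and -0.14, -0.16 and 0.04 on the p65 siRNA arrays. Its RPS3 siRNA mean of 0.31 ± 0.59 came from the 1 h array and was -0.03 without it. LTB, its membrane-bound partner, averaged -0.10 ± 0.12 under RPS3 siRNA and 0.00 ± 0.10 under p65 siRNA. IL37, an interleukin that dampens inflammation, averaged -0.15 ± 0.24 under RPS3 siRNA, and -0.02 without the 6 h array.

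**Figure D2:**
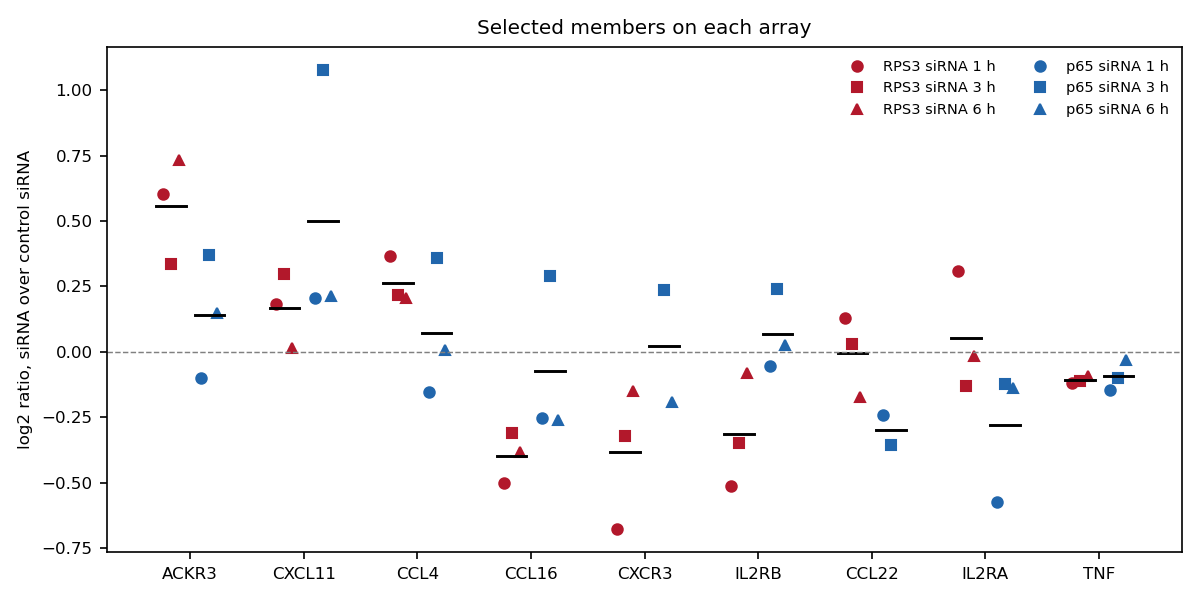
Log2 ratio of siRNA over control siRNA (vertical axis) of 9 members on the 3 RPS3 siRNA arrays (red) and the 3 p65 siRNA arrays (blue), with circles for 1 h, squares for 3 h, triangles for 6 h and a bar at each mean. ACKR3 lies above 0 and CCL16, CXCR3 and IL2RB below 0 on every RPS3 siRNA array, while TNF lies between -0.14 and -0.03 throughout.

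The receptor furthest from control under RPS3 siRNA was ACKR3, an atypical receptor that scavenges CXCL12 and CXCL11. It read 0.60, 0.33 and 0.73 on the RPS3 siRNA arrays, against -0.10, 0.37 and 0.15 on the p65 siRNA arrays. The groups overlapped at 1 value, the 3 h array of p65 siRNA. The means were 0.56 ± 0.20 and 0.14 ± 0.23, with an unadjusted p of 0.0038 and an adjusted p of 0.492 for RPS3 siRNA (limma). Both probes were above 0 on all 3 RPS3 siRNA arrays, and the mean stayed between 0.47 and 0.67 when 1 array was left out. RPS3 siRNA minus p65 siRNA was 0.43 within the first run of experiment numbers and 0.41 within the second.

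CXCR3, the receptor for CXCL9, CXCL10 and CXCL11, lay below 0 on every RPS3 siRNA array. Its single probe read -0.68, -0.32 and -0.15, against 0.24 and -0.19 at 3 and 6 h of p65 siRNA and a blank at 1 h. The means were -0.38 ± 0.27 and 0.02 ± 0.30 (n = 2), the adjusted p for RPS3 siRNA was 0.632 (limma), and the mean was -0.24 without the 1 h array. Its ligands did not share that sign. CXCL9 averaged 0.25, CXCL10 0.02 and CXCL11 0.17 under RPS3 siRNA.

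The 3 chains of the IL-2 receptor did not share a pattern. IL2RB, the beta chain shared with IL-15, read -0.51, -0.35 and -0.08 on the RPS3 siRNA arrays, against -0.06, 0.24 and 0.03 on the p65 siRNA arrays. All RPS3 siRNA values lay below the p65 siRNA values, at means of -0.31 ± 0.22 and 0.07 ± 0.15, with an adjusted p of 0.623 for RPS3 siRNA (limma). Of its 4 probes with values on all arrays, 3 averaged between -0.75 and -0.43 under RPS3 siRNA, while the other averaged 0.36 and read 1.31 at 6 h. IL2RA, the alpha chain CD25 that marks activated T cells, read 0.31, -0.13 and -0.02 on the RPS3 siRNA arrays, against -0.57, -0.12 and -0.14 on the p65 siRNA arrays. Its p65 siRNA mean of -0.28 ± 0.26 was -0.13 without the 1 h array, and 1 of its 5 probes was complete. IL2RG, the common gamma chain, averaged 0.38 under RPS3 siRNA and 0.14 under p65 siRNA and is described with the slopes.

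IL5RA, the IL-5 receptor chain of eosinophils, averaged 0.41 ± 0.57 under RPS3 siRNA from values of 1.06, 0.15 and 0.01, and 0.08 without the 1 h array. IL6ST, the gp130 chain through which IL-6 and its relatives signal, read -0.37, -0.13 and -0.10 on the RPS3 siRNA arrays, against 0.00, -0.14 and -0.01 on the p65 siRNA arrays. Its RPS3 siRNA mean of -0.20 ± 0.15 was -0.11 without the 1 h array. IL4R, the IL-4 receptor alpha chain, averaged -0.01 ± 0.12 under RPS3 siRNA and -0.17 ± 0.09 under p65 siRNA, with all 3 p65 siRNA arrays below 0. IL9R averaged -0.16 ± 0.27 under RPS3 siRNA and -0.15 ± 0.08 under p65 siRNA. IL13RA2, a decoy receptor for IL-13, averaged 0.18 ± 0.21 under RPS3 siRNA and 0.27 ± 0.19 under p65 siRNA, and IL27RA -0.10 ± 0.09 and -0.23 ± 0.17 for the same siRNAs. The adjusted p of these 4 receptors for p65 siRNA lay between 0.919 and 0.922 (limma).

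**Figure D3:**
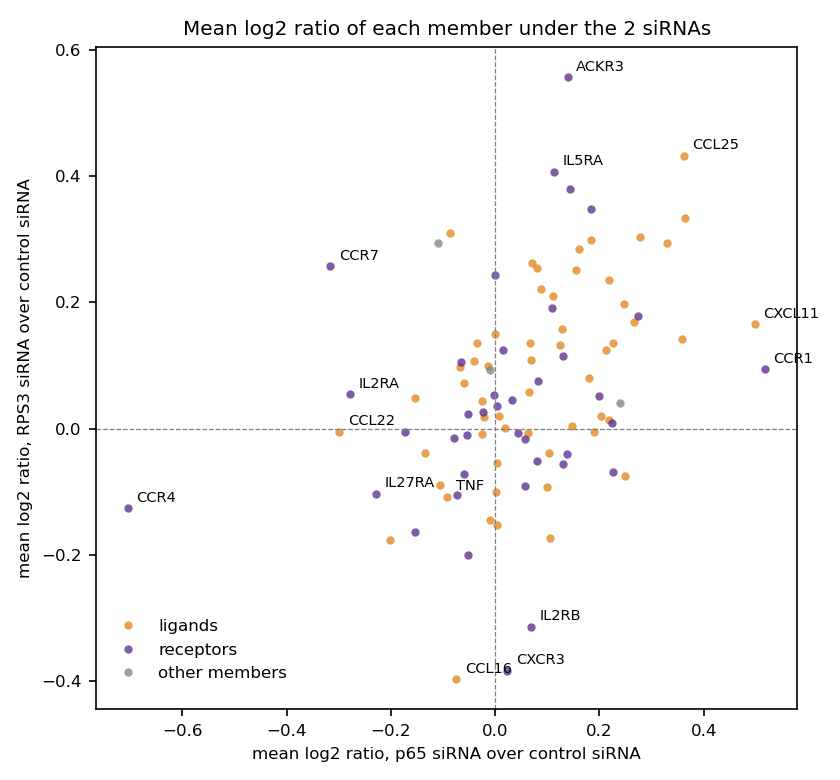
Mean log2 ratio under RPS3 siRNA (vertical axis) against that under p65 siRNA (horizontal axis) for the 98 members, 1 point per gene, with ligands in orange, receptors in purple and 3 other members in grey. ACKR3 is highest for RPS3 siRNA at 0.56, and CCR4 lowest for p65 siRNA at -0.70.

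Shares of members with 1 sign on every array lay within 4 percentage points of those of the whole array. Under RPS3 siRNA 14 members lay above 0 on every array with a value and 12 below, that is 14.3% and 12.2%, against 18% and 16% of all features. Under p65 siRNA it was 15 above and 9 below, 15.3% and 9.18%, against 14.3% and 11.4%. By class, 11 ligands were above and 6 below under RPS3 siRNA and 9 and 4 under p65 siRNA. For receptors the counts were 3 and 6 under RPS3 siRNA and 5 and 5 under p65 siRNA.

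The difference of RPS3 siRNA minus p65 siRNA asks which members respond unlike to the 2 knockdowns. All RPS3 siRNA arrays lay above all p65 siRNA arrays for 1 member, CCL22, against 4.56% of all features, and below for 4, CCL16, CXCL5, IL1R1 and IL2RB, against 5.25%. IL1R1, the signalling receptor of IL-1, read -0.14, -0.01 and -0.05 on the RPS3 siRNA arrays, against 0.10, 0.53 and 0.05 on the p65 siRNA arrays. Its difference was -0.30, and -0.14 without the p65 siRNA array at 3 h. Its 2 complete probes lay on opposite sides of 0 under each siRNA. The highest difference with 1 sign at every time was that of CCR7, the receptor that guides T cells to lymph nodes. CCR7 read 0.61 and -0.09 at 1 and 3 h of RPS3 siRNA, against 0.04, -1.11 and 0.13 on the p65 siRNA arrays, a difference of 0.57 that was 0.18 without the p65 siRNA array at 3 h. None of its 4 probes was complete. IL36RN, an antagonist of the IL-36 receptor, differed by 0.40, from means of 0.29 ± 0.38 and -0.11 ± 0.26, and by 0.20 without the RPS3 siRNA array at 6 h. Within the 2 runs of experiment numbers the median difference of ligands was 0.10 and -0.04, and of receptors 0.01 and 0.02.

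A slope per hour, fitted to the ratios of both siRNAs together, describes how the ratios changed with hours of stimulation. Both 6 h arrays weigh on it, and they correlated at 0.69. RPS3 itself read -2.53 at 3 h and -1.44 at 6 h of RPS3 siRNA, and 0.01 and 1.11 of p65 siRNA. A changed effect of knockdown and a property shared by the 6 h arrays or their controls cannot be told apart here. The slope was above 0 for 16 ligands and below for 40, with a median of -0.02 per h. For receptors it was above 0 for 20 and below for 19, with a median of 0.00 per h. Of all features 49.5% had a slope above 0. At an unadjusted p under 0.05 there were 10 members with a higher ratio at later times, against 12.1% of all features, and 2 with a lower one, against 7%. None passed after adjustment, with adjusted p-values from 0.189 to 0.252 (limma). Without the p65 siRNA array at 1 h, which leaves 5 arrays, 488 features (6.08%) and 6 of 95 members (6.32%) passed. Those were CCR4, IL2RG and IL32 upward, and CCL1, IFNG and IL15 downward.

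**Figure D4:**
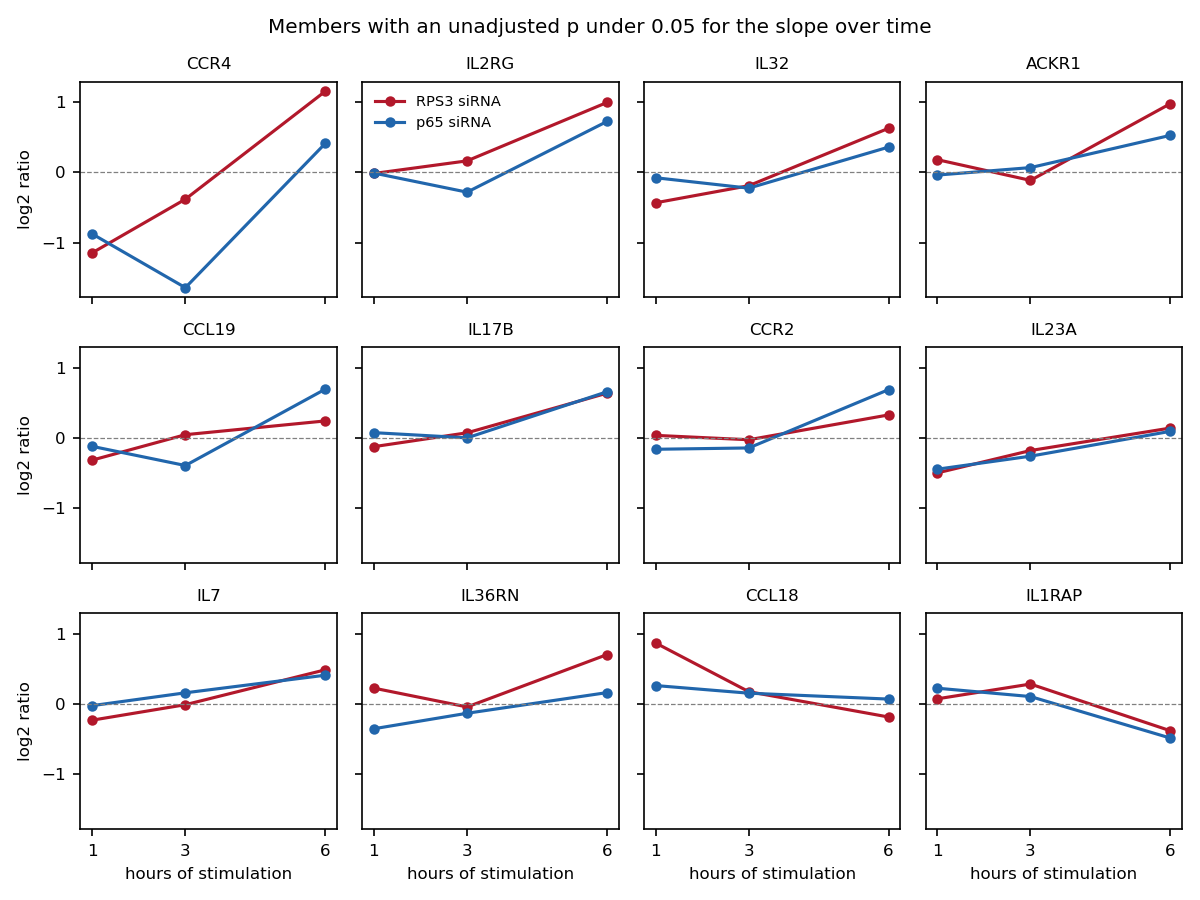
Log2 ratio of siRNA over control siRNA (vertical axis) against hours of stimulation (horizontal axis) for the 12 members with an unadjusted p under 0.05 for the slope, with RPS3 siRNA in red, p65 siRNA in blue and 1 array per point. CCR4 lies below 0 on all 4 earlier arrays and above 0 on both 6 h arrays, and IL23A is higher at each later time under both siRNAs.

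The steepest slope was that of CCR4, a receptor for CCL17 and CCL22 found on Th2 and skin-homing T cells. It read -1.15, -0.38 and 1.15 at 1, 3 and 6 h of RPS3 siRNA, and -0.88, -1.64 and 0.41 of p65 siRNA. Both 6 h arrays lay above 0 and all 4 earlier ones below. The slope was 0.38 per h with an unadjusted p of 0.0071 and an adjusted p of 0.189 (limma), and it was 0.00 per h from the 1 and 3 h arrays alone. All 3 probes were below 0 on the 4 earlier arrays and, where they had a value, above 0 at 6 h. At 6 h of p65 siRNA 1 of them had a value.

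IL32, an inflammatory cytokine of T and NK cells, read -0.43, -0.19 and 0.63 on the RPS3 siRNA arrays and -0.08, -0.23 and 0.36 on the p65 siRNA arrays. All 4 of its probes had values on every array and were above 0 at 6 h of both siRNAs. Its slope was 0.16 per h, 0.10 without the RPS3 siRNA array at 6 h and 0.02 from the 1 and 3 h arrays alone. IL23A, the p19 chain of IL-23, read -0.50, -0.18 and 0.14 on the RPS3 siRNA arrays and -0.44, -0.26 and 0.10 on the p65 siRNA arrays. It was higher at each later time under both siRNAs, and its slope of 0.12 per h stayed between 0.11 and 0.13 under every alternative. IL17B, read by 1 probe, was -0.12, 0.08 and 0.64 on the RPS3 siRNA arrays and 0.08, 0.00 and 0.66 on the p65 siRNA arrays. Its slope of 0.14 per h was 0.03 from the 1 and 3 h arrays alone.

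IL2RG read -0.02, 0.16 and 0.99 on the RPS3 siRNA arrays and -0.01, -0.28 and 0.72 on the p65 siRNA arrays, a slope of 0.18 per h. IL7, the lymphocyte survival cytokine, had a slope of 0.12 per h, ACKR1, a red cell and venule receptor that binds many chemokines, 0.15, CCR2, the receptor of CCL2, 0.12, CCL19, a ligand of CCR7, 0.14, and IL36RN 0.10. Lower ratios with time were read for CCL18 and for IL1RAP, the accessory chain of the IL-1 receptor, both at -0.12 per h. IL1RAP read 0.07, 0.28 and -0.38 on the RPS3 siRNA arrays, and 0.22, 0.10 and -0.49 on the p65 siRNA arrays. Without the p65 siRNA array at 6 h the slope of CCR2 was 0.06 and that of CCL19 0.07, and without the RPS3 siRNA array at 6 h that of ACKR1 was 0.08 per h. The slope of CCL18 was -0.06 per h without the RPS3 siRNA array at 1 h, -0.08 without that at 6 h and -0.18 without the p65 siRNA array at 6 h. Without both 6 h arrays the slope of CCL19 was 0.02 per h, and the slopes of ACKR1, CCR2, CCR4, IL2RG, IL36RN and IL1RAP changed sign.

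T cell markers also had slopes above 0. Of 15 such genes, listed with earlier results of these data known, 11 were tested and 0 passed after adjustment. At an unadjusted p under 0.05, 8 of them had a slope above 0, against 12.1% of all features, and 0 below, against 7%, with a median slope of 0.14 per h. The 6 h ratio exceeded the mean of the earlier ones for 10 of 11 under RPS3 siRNA and 9 of 11 under p65 siRNA. Over all features it did so for 4024 of 8272 and 4026 of 8272. The median differences of the markers were 0.64 and 0.55, against -0.02 and -0.01 over all features. For the ligands the medians were -0.19 and -0.08, with 10 of 54 and 23 of 54 above 0. The receptors were at 0.02 and 0.06. The part of the T cell markers in the slopes was not tested.

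Single probes of a gene often disagreed. Of 53 members with at least 2 complete probes, all lay on the same side of 0 in 25 for RPS3 siRNA and in 20 for p65 siRNA. CXCR4, the CXCL12 receptor, had gene values between -0.02 and 0.08 on all 6 arrays. Of its 7 probes with values on all arrays, 4 were below 0 at 6 h of both siRNAs, at -0.29 to -0.07, while 3 read 0.15 to 0.48. For IL2RG, 2 probes read 1.81 and 1.74 at 6 h of RPS3 siRNA, while 2 others read 0.12 and 0.31. CCR1, a receptor of CCL3 and CCL5, had a p65 siRNA mean of 0.52, and 1 of its 5 probes read 7.21 at 6 h, against -0.47 to 1.07 for the other 4.

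**Figure D5:**
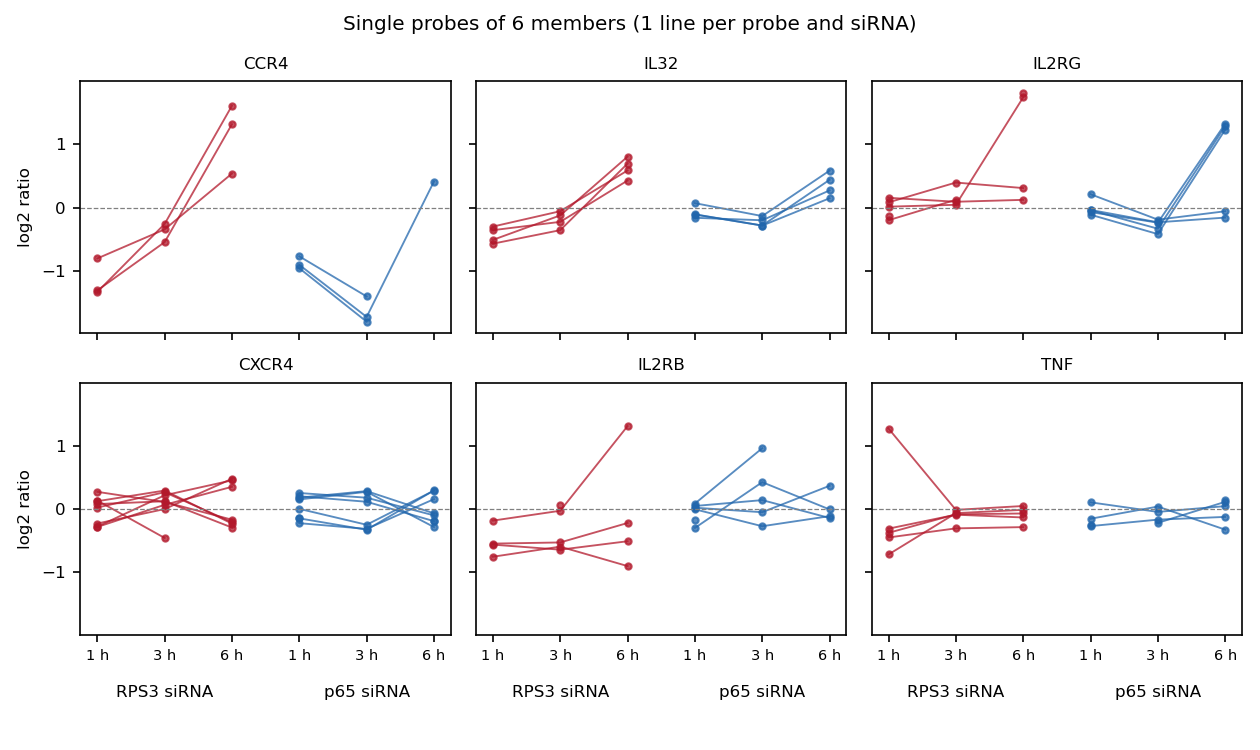
Log2 ratio of siRNA over control siRNA (vertical axis) of the single probes of CCR4, IL32, IL2RG, CXCR4, IL2RB and TNF, with 1 line per probe and siRNA, RPS3 siRNA in red on the left and p65 siRNA in blue on the right. Probes of CCR4 and IL32 run together, whereas those of CXCR4 and IL2RG part at 6 h.

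Some of the probes high at 6 h lay in 3 narrow ranges of probe number, chosen after the values were seen. They hold all probes of CCR4 and ACKR1, the high ones of IL2RG, CXCR4 and IL2RB, and 1 of the 4 of IL7. For 15.9% of 232 probes of any gene in them the 6 h ratio under RPS3 siRNA exceeded the mean of the earlier ones by more than 1. Under p65 siRNA it was 11.2% of 249, and of all other probes 4.65% and 3.9%. Under RPS3 siRNA this held for 8 of 29 member probes inside the ranges and 5 of 213 outside. Under p65 siRNA it held for 7 of 36 inside and 8 of 215 outside, the CCR1 probe at 7.21 being outside. Among members with probes inside and outside the ranges, the inside mean was the higher in 13 of 18 under RPS3 siRNA and in 12 of 18 under p65 siRNA. Without these probes the slope of IL2RG was -0.01 per h and that of IL7 -0.10 per h, CCR4 and ACKR1 had no value, and IL32, IL23A and IL17B, whose probes lie outside, kept theirs. What sets these probes apart was not tested.

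Genes that carry or control cytokine signals were taken from lists of JAK, STAT and SOCS genes, of transcription factors of T cell cytokine genes and of decay factors of cytokine mRNAs. The lists were chosen with earlier results of these data known, so counts in them are descriptions only. Of 31, 36 and 21 listed genes 23, 30 and 11 were tested, and 0 passed in any comparison. Among the JAK, STAT and SOCS genes none was reached at an unadjusted p under 0.05 for either siRNA. The shares of all features were 7.71% for RPS3 siRNA and 5.06% for p65 siRNA. For the slope 3 of the 23 were reached above 0, against 12.1% of all features, and 1 below, against 7%. They were SOCS3, STAT3 and STAT5B above and PTPN2 below. SOCS3, a feedback inhibitor of IL-6 signalling, read 0.01, -0.06 and 1.04 on the RPS3 siRNA arrays and 0.02, 0.13 and 1.51 on the p65 siRNA arrays, a slope of 0.26 per h. STAT3, which carries IL-6 signals, had a slope of 0.17 per h, STAT5B, which carries IL-2 signals, 0.14, and PTPN2, a phosphatase of the pathway, -0.11.

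Among the transcription factors, 4 were below 0 at an unadjusted p under 0.05 under p65 siRNA, against 2.41% of all features. The list was chosen with earlier results known, so an excess over that share is no support. The 4 were NFKB1 at -0.55 ± 0.62, ETS1 at -0.52 ± 0.44, RELA, the siRNA target itself, at -0.49 ± 0.09 and RUNX3 at -0.37 ± 0.12. Under RPS3 siRNA the same genes averaged -0.23, -0.13, -0.54 and -0.20. At 1, 3 and 6 h of p65 siRNA NFKB1 read -0.65, -1.11 and 0.11, and ETS1 -0.01, -0.79 and -0.77. RELA was the 1 factor below 0 at that threshold under RPS3 siRNA, against 3.98% of all features. BATF3, an AP-1 family partner, was the 1 above, at 0.45, against 3.73%. At an unadjusted p under 0.05, 6 of the 30 had a slope above 0, against 12.1% of all features, and 0 below, against 7%. Among the 6 were NFATC1 at 0.10, REL at 0.11 and BATF at 0.13 per h. Of the decay factors, CNOT7, a subunit of the deadenylase complex, averaged 0.31 under RPS3 siRNA and 0.15 under p65 siRNA.

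Markers of other cell types had too few genes for more than their counts. Of 6 myeloid markers 1 was above 0 at an unadjusted p under 0.05 under RPS3 siRNA, against 3.73% of all features, and 1 below, against 3.98%. The first was CSF1R, which read 1.03 and 0.93 at 1 and 6 h and was blank at 3 h, and the second CD68 at -0.27. Under p65 siRNA none was reached, against 5.06%. Of 4 B cell, 4 epithelial or stromal and 2 erythroid markers none was reached for either siRNA. Probes of these genes had values on the arrays, and without channel intensities their presence in the cells cannot be read from them.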

How the data were processed

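RNA of Jurkat cells was compared on 6 two-colour arrays of 15246 probes, per the labels with siRNA-treated cells in Cy5 and control siRNA cells in Cy3. The authors deposited 1 log ratio per probe and array, read here as log2. The log base and the direction are not stated: values up to 9.52 make base 10 unlikely, a natural log stays possible, and the direction is the likely one from the dyes and the RPS3 probe. Image analysis, background correction and normalization are not given in the sources used here. Deposited medians lay between -0.02 and 0.01, and 5.40% to 15.1% of probes were blank per array.

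The median of an array was subtracted from its values, probes of 1 symbol were averaged per array over the probes with a value, and features with values on at least 2 of 3 arrays of each siRNA were kept (8797, of which 4393 genes). Of the probes 10169 had 1 symbol, 4 several and 5073 none. The probes averaged can differ between arrays where some are blank.

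Means, their difference and a slope per hour with a mean per siRNA came from limma (version 3.58.1, lmFit and eBayes, under R 4.3.3), with Benjamini-Hochberg adjustment over all features and a threshold of 0.05. The 3 times of a siRNA stand as its replicates. The labels name no separate cultures for the arrays. The p-values therefore cover only array-to-array spread, which may be technical. For the means and the difference, and in each SD, that spread also holds any change between the 3 times. A test against 0 leaves out the spread of the control and keeps any dye effect common to all arrays. Precision is limited by having 6 arrays, and intensities were not used. The fit was tested on simulated data with the same spread for every feature.

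Genes were named by rule: members with an unadjusted p under 0.05 and 1 sign in the contrast, the 6 highest and 6 lowest one-signed means per siRNA, the 4 highest and 4 lowest one-signed differences, and IFNG, TNF, LTA, LTB, CSF2, IL2, IL2RA and CXCL8 where measured. For the slope, the sign rule had no counterpart and the p alone was used. CXCR4, CCR1, CXCL9, CXCL10, the kB-site genes and genes of the lists were named outside it after their values were seen. The members and the gene lists were chosen with earlier results of these data known. Alternatives were quantile normalization, no centring, scaling, filters on blanks, complete probes only, single probes, time as a block, experiment number series as a covariate, arrays left out, and 2 choices made after seeing the data: centring within blocks of 500 probe numbers, and leaving out probes of 3 number ranges. Promoter sequences are those of RefSeq, GRCh38.p14.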

Additional observations from a re-analysis of the deposited data

Results flagged for a closer look

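IL1R1, the signalling receptor of IL-1, read below 0 on all 3 RPS3 siRNA arrays and above 0 on all 3 p65 siRNA arrays. Its difference of RPS3 siRNA minus p65 siRNA was -0.30 on the log2 scale, with an adjusted p of 1.00 by limma, and was lower in 3 of 3 times. Within the second run of experiment numbers the difference was -0.39 and within the first -0.11. No single probe of IL1R1 kept both signs on all its arrays. Its 2 complete probes averaged -0.20 and 0.01 under RPS3 siRNA, and 0.20 and -0.08 under p65 siRNA. Over all features, 5.25% had all RPS3 siRNA arrays below all p65 siRNA arrays.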

How the results depend on the processing

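No member passed under any of 18 alternatives for RPS3 siRNA, p65 siRNA or their difference, and for the slope in 1 of 17. With each array left out in turn, the slope count ranged from 0 to 6 members and from 0 to 488 of all features, the upper values coming without the p65 siRNA array at 1 h. Over all features RPS3 siRNA gave 1 call with quantile normalization, 1 with time as a block and 2 without both 6 h arrays, and the difference gave 1 with time as a block. The ligand median was 0.09 under RPS3 siRNA and 0.08 under p65 siRNA, and with 1 array left out it ran from -0.027 to 0.120 and from -0.036 to 0.153. With complete probes only it was 0.040 under RPS3 siRNA and 0.042 under p65 siRNA, and without the probes of 3 number ranges 0.035 and 0.066. The receptor median under RPS3 siRNA was 0.02, and -0.013 with complete probes only, and with 1 array left out it ran from -0.020 to 0.034. Slopes per h that changed sign without both 6 h arrays were ACKR1 at -0.047, CCR2 at -0.011, CCR4 at -0.00038, IL1RAP at 0.023, IL2RG at -0.023 and IL36RN at -0.012. Without the probes of 3 number ranges the slopes of IL2RG and IL7 were -0.0081 and -0.098, CXCL8 was 0.011 under p65 siRNA and -0.010 for the difference, and LTA under RPS3 siRNA -0.019. With 1 array left out LTA under RPS3 siRNA ran from -0.029, without the 1 h array, to 0.523. Among 899 comparisons of 56 named values 33 changed sign, those of means within 1 standard error of 0 included, and the cause was not tested. Members at an unadjusted p under 0.05 ran from 1 to 8 for RPS3 siRNA, 0 to 5 for p65 siRNA, 0 to 2 for the difference and 1 to 25 for the slope, single probes aside. With each of 269 member probes tested alone, 23, 12, 8 and 42 probes were reached in these comparisons. Time as a block was tried because replicate numbers here are accession order, and no paired analysis by replicate number was possible because the labels give none.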
